A study of Mus musculus with 32 samples.

Results

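The libraries described here hold ribosome-bound RNA of spinal cord astrocytes from female mice, 3 taken 3 weeks after a fracture and 3 from uninjured animals. They were chosen by their labels (sex, fraction and injury state) and are 6 of the 32 libraries of the series. All 6 carry the genotype given in the labels as Aldhl1l-CreER;Rpl22-HA, in which an astrocyte-driven, inducible Cre switches on a haemagglutinin-tagged ribosomal protein Rpl22. The tagged ribosomes were pulled out of homogenised lumbar cord with an anti-HA antibody, and these pull-downs are named Trap. The fracture models complex regional pain syndrome, a chronic pain condition that can follow limb injury. RNA of the whole homogenate, named Input, was sequenced from 1 female library at 3 weeks and 1 uninjured female library. Female Trap libraries at 5 and 7 weeks and male Trap libraries at 3 weeks and without injury serve for comparison. All 24 Trap libraries of both sexes entered the model, so the other 18 helped to set the spread against which the 6 were tested. The sources used here give neither strain nor age. The labels name 3 replicates in each group but no individual animals, and the tests therefore rest on how much these libraries vary, which may be technical.

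Astrocytes take up glutamate and potassium released by neurons, are joined to each other by connexin gap junctions, and make glutamine, lactate and cholesterol. After nerve injury or inflammation they can become reactive, with more of the intermediate filament Gfap and of secreted immune proteins. They also respond to glucocorticoids, the adrenal steroid hormones of the stress response, through the glucocorticoid receptor Nr3c1. A pull-down of tagged ribosomes reports which transcripts are engaged by ribosomes in these cells. In such bulk libraries fewer cells of a type and less RNA per cell cannot be told apart.

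Total estimated counts of the 6 libraries ran from 19124159 to 22026229, and a level of 1 CPM, counts scaled to library size by the trimmed mean of M-values (TMM), rests on about 20 counts. The 25 astrocyte markers were all higher in female Trap than in female Input, with a median log2 difference of 3.28. The 20 neuron, 18 oligodendrocyte, 17 microglia and 13 endothelial markers were all lower in Trap, with medians of -3.91, -2.36, -3.63 and -2.96. Other lists were mixed. Among 10 oligodendrocyte precursor markers 5 were higher and 5 lower in Trap, and among 12 mural and meningeal markers 3 and 6. For 10 ependymal markers the counts were 2 and 6, and for 8 Schwann cell markers 2 and 3. Blood cell and neutrophil genes were mostly higher in Trap, 9 of 16 with 2 lower and a median of 2.27. Of the 17256 genes tested in that comparison, 37.4% were higher and 38.8% lower in Trap at an adjusted p under 0.05 in edgeR's quasi-likelihood test. Across the 12 female Trap libraries the Y-linked gene Ddx3y stayed between 0.4 and 0.799 CPM, against 68 to 107 CPM in the 12 male ones. Replicate 3 at 3 weeks stood apart from the other libraries: mitochondrially encoded genes took 0.489% of its counts, against 0.13% to 0.216% in the other 5. Its summed neuron markers reached 1670 CPM, against 800 to 1260 CPM in the other 5, and the neuronal vesicle fusion gene Snap25 stood at 229 CPM against 58.9 to 103 CPM.

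The question was which astrocyte transcripts differed 3 weeks after fracture. Of 15380 genes tested in the model of all 24 Trap libraries, 6 passed an adjusted p of 0.05 in edgeR's quasi-likelihood test, 3 higher and 3 lower at 3 weeks. None of the 6 passed when only these 6 libraries were fitted (adjusted p 0.137 to 0.338), nor with only the 12 female Trap libraries (0.0972 to 0.138), and each kept its direction in both fits. That is 0.039% of the genes tested, and 0.0195% in each direction. Rflnb, Aqp6 and Galnt18 fell, and Nnat, Anxa1 and Retnlg rose. At an unadjusted p under 0.05 there were 1303 genes (8.47%), 602 higher (3.91%) and 701 lower (4.56%). The libraries of the groups did not overlap at 14.8% of genes.

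Rflnb, refilin B, is a small protein that binds filamins and organises actin filaments. It was measured at 15.1, 18.2 and 20.9 CPM at 3 weeks, against 40.1, 36.3 and 33.0 CPM in uninjured females. Every 3-week library was below every uninjured one. The gene (ENSMUSG00000020846.6, chromosome 11, 76019194 to 76027782 on the minus strand of GRCm38) fell by 1.01 ± 0.13 on the log2 scale (± standard error of the fit, n = 3 in each group, adjusted p = 0.00138), a fold of 0.496. It was also called in 6 of 6 fits that left out 1 library each, the only one of the 6 genes of which this held. In whole cord its level was 12.2 CPM at 3 weeks against 16.3 CPM in the uninjured library.

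Aqp6 (chromosome 15, 99601400 to 99605477, GRCm38) encodes an aquaporin best known from intracellular vesicles of kidney cells, where it also passes anions. Its level was 10.2, 11.6 and 9.72 CPM at 3 weeks, against 21.3, 20.6 and 16.9 CPM in uninjured females, with no overlap. It fell by 0.90 ± 0.16 on the log2 scale (edgeR adjusted p = 0.0299). Galnt18 (chromosome 7, 111471661 to 111779977) belongs to the family of transferases that start mucin-type O-glycans, and it had 44.6, 53.6 and 60.7 CPM at 3 weeks, against 106, 89.6 and 86.5 CPM in uninjured females. These groups did not overlap either, and Galnt18 fell by 0.83 ± 0.15 (edgeR adjusted p = 0.0299). Both genes were enriched in Trap over Input, by 3.10 for Aqp6 and 2.30 for Galnt18 on the log2 scale. Each was called in 2 of 6 fits that left out a library.

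Nnat, neuronatin (chromosome 2, 157560078 to 157562522), is a paternally expressed imprinted gene whose small membrane protein affects calcium handling in the endoplasmic reticulum. It stood at 523, 534 and 447 CPM at 3 weeks, against 286, 387 and 321 CPM in uninjured females. The lowest 3-week library was above the highest uninjured one, and Nnat rose by 0.60 ± 0.11 on the log2 scale (edgeR adjusted p = 0.0373), a fold of 1.51. It was called in 2 of 6 fits that left out a library. It lies within an intron of Blcap on the opposite strand, and the sources used here do not say whether counting used strand. In whole cord it was 113 CPM at 3 weeks and 72.9 CPM in the uninjured library. Of 21 imprinted genes tested, Nnat alone was called (0.0195% of all genes were called higher), and 11 had a fitted difference above 0 (51.4% of all genes did) and 10 below 0. Without 3-week replicate 3, 7 lay above 0.

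The 2 other genes that rose are rare in these libraries and are on the list of blood cell and neutrophil genes. Anxa1, an annexin that dampens neutrophil recruitment and is itself induced by glucocorticoids in several tissues, had 14, 55 and 13 counts at 3 weeks, against 0, 2 and 2 counts in uninjured females (edgeR adjusted p = 0.0162). Retnlg, a resistin-like protein of neutrophils, had 14, 42 and 10 counts at 3 weeks, against 2, 1 and 2 counts in uninjured females (edgeR adjusted p = 0.0464). Anxa1 lies on chromosome 19 (20373428 to 20390944), where 1500015L24Rik overlaps it on the opposite strand, and Retnlg on chromosome 16 (48872621 to 48874496). Both stood highest in 3-week replicate 2. Leaving out 1 library at a time, Anxa1 was called in 3 of 6 fits and Retnlg in 2 of 6, and neither was called without 3-week replicate 2. Their folds of 18.7 and 12.2 rest on the handful of uninjured counts. The neutrophil alarmin genes S100a8 and S100a9 were also highest in that library, S100a8 with 2.68, 10.7 and 1.20 CPM at 3 weeks against 0.094, 1.15 and 0.510 CPM uninjured, without passing the test (adjusted p = 0.0869). Of 18 blood cell and neutrophil genes listed, 13 were tested, and 5 of these were higher at 3 weeks without overlap (38.5%, against 7.22% of all genes). From the list 2 were called higher, as were 0.0195% of all genes. The filter on low counts keeps a gene with enough counts in as few libraries as 1 group holds. Rare genes such as Anxa1 and Retnlg may have entered through the 3-week libraries in which they are high. The share and the calls of this list are therefore a description. The haemoglobin genes went the other way: Hba-a1 was 103 CPM in 3-week replicate 2, against 208 to 318 CPM in the other 5 libraries. The part of blood cells in these counts was not tested.

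**Figure D1:**
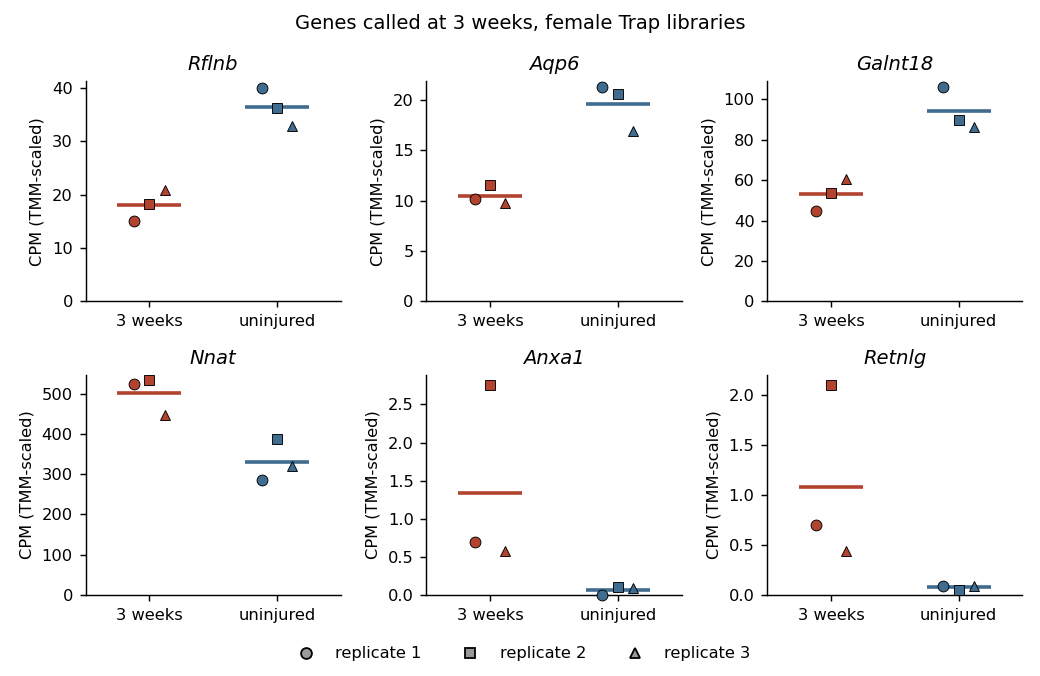
CPM (TMM-scaled, linear axis from 0) of the 6 called genes in the 3 female Trap libraries at 3 weeks (left) and the 3 uninjured ones (right). Symbols mark replicates and bars mark group means. The groups do not overlap in any of the 6 panels, and Anxa1 and Retnlg have their highest value in 3-week replicate 2.

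The 8 genes in each direction with the smallest p among those that did not pass, and with a mean of at least 1 CPM, came near the threshold. On the higher side, Smoc1, a secreted calcium-binding matricellular protein of basement membranes, had 43.7, 54.9 and 30.8 CPM at 3 weeks, against 25.1, 25.7 and 26.3 CPM uninjured. Its fitted log2 difference was 0.74 ± 0.14 (edgeR adjusted p = 0.053), and the groups did not overlap. Tmem176a, a membrane protein of intracellular vesicles, differed by 0.61, Tgif2, a homeobox repressor of TGF-beta signalling, by 1.27, and Eva1b by 1.15. On the lower side, the focal adhesion protein Tns3 had 528, 554 and 559 CPM at 3 weeks, against 1040, 776 and 696 CPM uninjured (log2 difference -0.61 ± 0.12, adjusted p = 0.0566). Svil, supervillin, which ties actin to the membrane, had 11.2, 15.4 and 13.6 CPM at 3 weeks, against 30.4, 26.5 and 23.5 CPM uninjured (adjusted p = 0.0582). Cgnl1, a tight and adherens junction scaffold, differed by -0.84, the kinase gene Prkcd by -0.70, and Txnip, an inhibitor of thioredoxin that glucose induces, by -0.88. The adjusted p of these 16 genes ran from 0.053 to 0.0973.

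Actin and adhesion genes, the group to which Rflnb, Tns3 and Svil belong, lay mostly below 0. The list was drawn up with results of these genes known, so its direction is a description. Of 24 tested, 18 had a fitted difference below 0 (75% against 48.6% of all genes) and 1 was called lower (0.0195% of all genes were). On the lower side 8 had an unadjusted p under 0.05 in edgeR (4.56% of all genes did). Lower without overlap were 10 (41.7%, against 7.56% of all genes). The list median was -0.19, against 0.01 over all genes. Ilk, the integrin-linked kinase, stood at 125, 122 and 124 CPM at 3 weeks, against 180, 158 and 142 CPM uninjured (log2 difference -0.38, adjusted p = 0.167). Tns1, a second tensin, differed by -0.48. Flna and Flnc, which encode actin-crosslinking filamins, had values of -0.01 and 0.06. Without 3-week replicate 3 the list median was -0.06 and 15 of 24 members were below 0.

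Genes of gap junctions, potassium and water handling also lay mostly below 0. Of 17 tested, 15 had a fitted difference below 0 (48.6% of all genes did), 4 were lower without overlap (23.5%, against 7.56% of all genes) and Aqp6 was the called member (0.0195% of all genes were called lower). Gja1, connexin 43, the main astrocyte gap junction protein, had 2190, 2030 and 1930 CPM at 3 weeks, against 2690, 2720 and 2640 CPM uninjured. The groups did not overlap, but the test was not passed (log2 difference -0.39 ± 0.09, edgeR adjusted p = 0.111). Gjb6, connexin 30, gave 666, 752 and 722 CPM at 3 weeks, against 1210, 941 and 816 CPM uninjured (-0.47, adjusted p = 0.113). Dtna, a dystrobrevin of the endfoot complex, differed by -0.29. Aqp4, the endfoot water channel, differed by -0.04, and Kcnj10, the main astrocyte potassium channel, by -0.21. Without 3-week replicate 3 the median of the list was -0.05, with 14 of 17 below 0.

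Of the 25 astrocyte markers, 22 had a fitted difference below 0 (48.6% of all genes did), with a median of -0.15 and none called (edgeR, adjusted p under 0.05). Glul, glutamine synthetase, was 6680, 7700 and 5910 CPM at 3 weeks, against 11500, 8550 and 7150 CPM uninjured, with overlap (-0.42, adjusted p = 0.305). Gfap had 15500, 13500 and 11100 CPM at 3 weeks, against 10300, 11500 and 11600 CPM uninjured, a log2 difference of 0.27 that did not pass (adjusted p = 0.511). The summed level of all 25 markers was 113000, 117000 and 87300 CPM at 3 weeks, against 119000, 111000 and 108000 CPM uninjured, so replicate 3 was again the lowest. Without it 16 of the 25 markers lay below 0 and 9 above, with a median of -0.03. The median of the 20 neuron markers was 0.21 with that library and -0.40 without it. How far neuronal RNA in that library moves these medians was not tested.

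**Figure D2:**
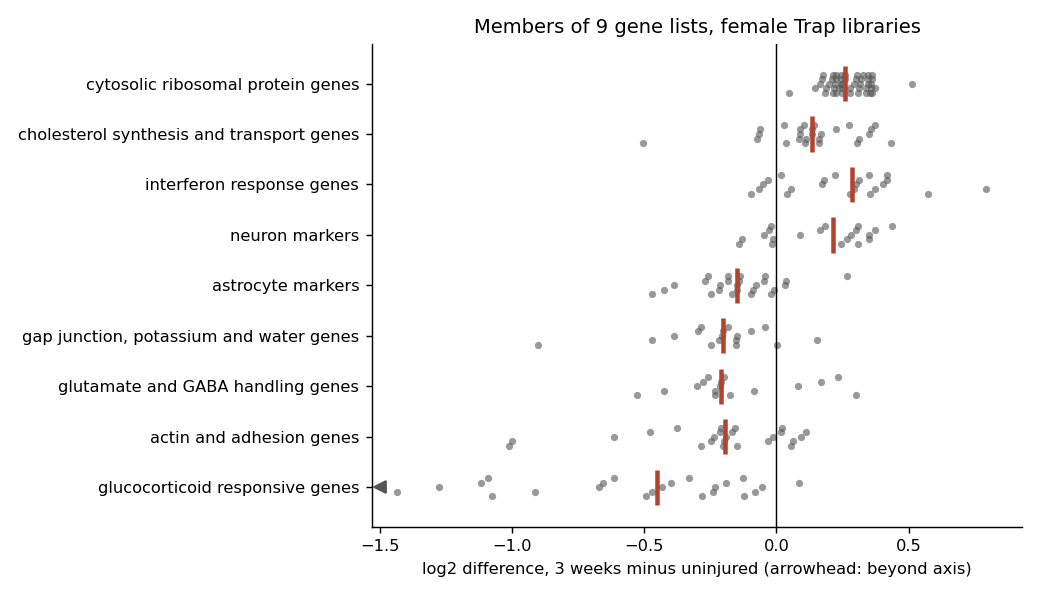
Fitted log2 difference (3 weeks minus uninjured) of each member of 9 gene lists in female Trap libraries, 1 point per gene, with the list median as a red bar. Arrowheads mark values beyond the axis. Cytosolic ribosomal protein genes lie to the right of 0 with 48 of 48 members, glucocorticoid responsive genes to the left with 23 of 24.

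Of 24 listed genes that glucocorticoids induce, none passed the adjusted threshold, and 23 had a fitted difference below 0 at 3 weeks (48.6% of all genes did). The median was -0.45, and -0.23 without uninjured replicate 1. At the single-gene level 12 had an unadjusted p under 0.05 in edgeR on the lower side (4.56% of all genes did). Lower without overlap were 7 (29.2%, against 7.56% of all genes). The list was drawn up with earlier results of these data known, so its direction is a description. Tsc22d3, which encodes the glucocorticoid-induced leucine zipper, had 268, 294 and 305 CPM at 3 weeks, against 816, 405 and 410 CPM uninjured (log2 difference -0.91 ± 0.21, edgeR adjusted p = 0.113). Fkbp5, a co-chaperone that restrains the receptor, had 32.9, 63.2 and 86.2 CPM at 3 weeks, against 262, 103 and 128 CPM uninjured (-1.43, adjusted p = 0.349). Klf9, a transcription factor, and Cdkn1a, the cell cycle inhibitor p21, also did not overlap, at -0.43 and -1.09. Zbtb16 and Plin4, a lipid droplet protein, differed by -1.08 and -1.12, with overlapping groups. Dusp1 was the member above 0, at 0.08. The list also holds Gjb6, described above, and Lcn2, whose difference rests on 1 uninjured library. It does not hold Anxa1, described above, which glucocorticoids also induce in several tissues and which was called higher at 3 weeks.

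Uninjured replicate 1 was the highest library for Tsc22d3, Fkbp5, Cdkn1a, Zbtb16 and Plin4. Hr, a nuclear receptor corepressor and 1 of the genes near the threshold, had 138, 189 and 177 CPM at 3 weeks, against 637, 318 and 283 CPM uninjured, with the same library highest. Without uninjured replicate 1, 20 of 24 members were below 0, and 7 of 24 were lower without overlap, against 11.3% of all genes. The receptor itself, Nr3c1, had 133, 113 and 111 CPM at 3 weeks, against 99.2, 117 and 125 CPM uninjured. Hsd11b1, which regenerates active glucocorticoid in cells, had 254, 218 and 239 CPM at 3 weeks, against 300, 323 and 299 CPM uninjured, without overlap (-0.38, edgeR adjusted p = 0.179). In whole cord, with 1 library a state and no replicate check, 23 of the 24 responsive genes were lower at 3 weeks (52.7% of all genes were, and 47.2% higher). The median log2 ratio was -0.68. These Input libraries carry the replicate number and the column prefixes of Trap replicate 1 at 3 weeks and uninjured. The labels do not say whether the same animals were used, so Input may not be separate from uninjured replicate 1. Plin4 was 12.8 CPM at 3 weeks against 85.6 CPM uninjured in Input, and Sgk1, a kinase of salt transport, 65.9 against 206 CPM. Of 18 circadian clock genes, 12 lay below 0 and 6 above, and of 19 immediate early genes 7 below and 12 above. Over all genes in Trap 48.6% lay below 0 and 51.4% above. No gene of the 18 or the 19 was called by edgeR at an adjusted p under 0.05.

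**Figure D3:**
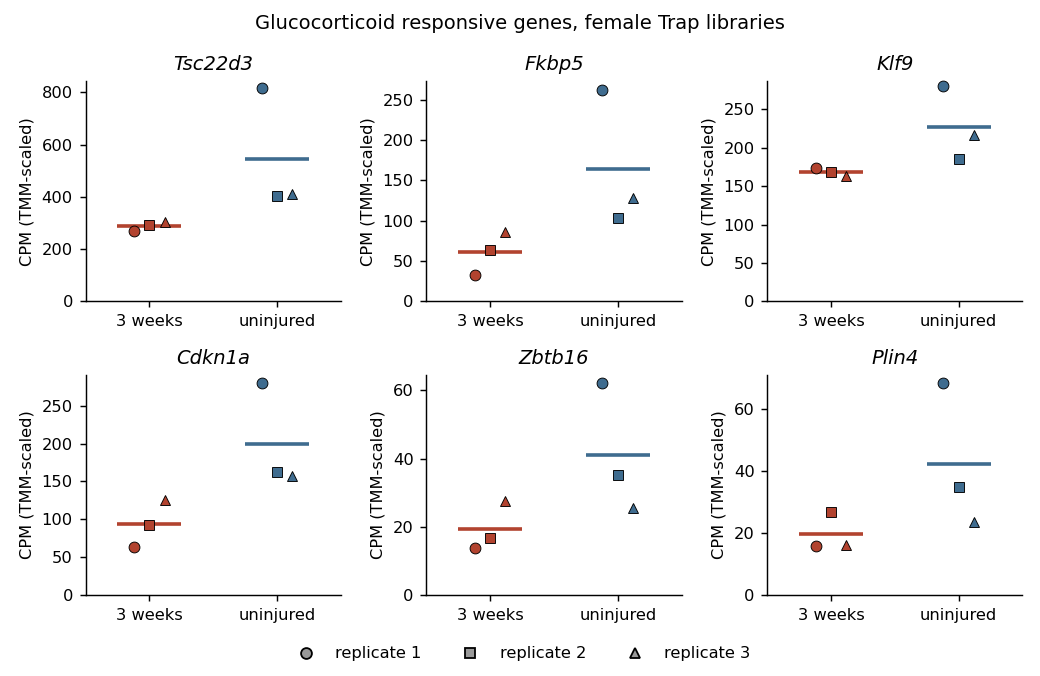
CPM (TMM-scaled, linear axis from 0) of 6 glucocorticoid responsive genes in female Trap libraries at 3 weeks (left) and uninjured (right), with replicates as symbols and group means as bars. Uninjured replicate 1 is the highest library in all 6 panels.

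The windows from 250 bases before to 50 bases after the annotated starts (RefSeq, GRCm38.p6) were searched on both strands for AGAACA, the element each partner of a glucocorticoid receptor dimer contacts, and for its palindrome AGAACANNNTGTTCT, which contains that element on each strand. Of the 24 listed genes, 22 had a window in the table. AGAACA occurred in windows of 4 of the 22 genes (Bcl6, Sgk1, Sult1a1, Tsc22d3), and in 18.2% of their 33 windows against 19% of all 32851. The palindrome occurred in 1 window of the list, at Sgk1, and in 0.00913% of all windows. Windows of Tsc22d3 and Sgk1, responsive genes with a match, and of Rflnb, the called gene with the smallest p, are shown in transcript direction, with the match in capitals (the palindrome for Sgk1, the element read on the other strand, TGTTCT, for Tsc22d3, none in Rflnb). Tsc22d3 and Sgk1 have several annotated starts, and the window shown is the one that holds the element for Tsc22d3 and the palindrome for Sgk1, whose other windows include 2 with the element alone.
Tsc22d3, chrX:140600473-140600772, minus strand: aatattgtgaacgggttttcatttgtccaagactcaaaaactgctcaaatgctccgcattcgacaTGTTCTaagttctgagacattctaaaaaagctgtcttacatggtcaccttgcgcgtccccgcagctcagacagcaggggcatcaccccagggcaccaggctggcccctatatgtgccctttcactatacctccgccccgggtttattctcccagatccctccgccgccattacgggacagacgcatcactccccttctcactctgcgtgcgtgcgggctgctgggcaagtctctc
Sgk1, chr10:21993640-21993939, plus strand: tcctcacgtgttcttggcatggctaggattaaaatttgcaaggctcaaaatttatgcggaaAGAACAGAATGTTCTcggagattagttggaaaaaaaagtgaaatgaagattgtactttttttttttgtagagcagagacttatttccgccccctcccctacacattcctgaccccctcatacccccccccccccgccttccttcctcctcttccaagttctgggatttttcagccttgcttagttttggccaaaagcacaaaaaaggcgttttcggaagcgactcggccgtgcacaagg
Rflnb, chr11:76027733-76028032, minus strand: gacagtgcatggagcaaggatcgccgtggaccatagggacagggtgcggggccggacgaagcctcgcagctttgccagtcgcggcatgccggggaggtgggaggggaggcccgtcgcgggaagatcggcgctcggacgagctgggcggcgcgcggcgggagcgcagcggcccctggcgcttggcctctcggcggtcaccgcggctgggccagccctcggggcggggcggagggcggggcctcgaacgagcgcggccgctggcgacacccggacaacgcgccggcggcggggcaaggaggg
A match is a description of the letters in these windows.

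Cytosolic ribosomal protein genes, which encode the subunits of the translating ribosome, had small fitted differences of 1 sign, and none of the 48 tested was called by edgeR. All 48 lay above 0 (51.4% of all genes did), with a median of 0.26 and a range of 0.05 to 0.51. On the higher side 5 had an unadjusted p under 0.05 in edgeR (3.91% of all genes did). Higher without overlap were 40 (83.3%, against 7.22% of all genes). Rpl3 had 268, 288 and 293 CPM at 3 weeks, against 239, 235 and 219 CPM uninjured (0.29, adjusted p = 0.427). Rpl22, the gene of the tagged protein, had 63.3, 65.0 and 73.3 CPM at 3 weeks, against 55.3, 51.0 and 57.6 CPM uninjured (0.30, adjusted p = 0.379). Their summed level was 5690, 5650 and 6610 CPM at 3 weeks, against 5200, 5170 and 4700 CPM uninjured. Without 3-week replicate 3, the highest library, the median was 0.18, 48 of 48 stayed above 0 and 40 were higher without overlap, against 13.4% of all genes. In Input the median log2 ratio was 0.04. Many of these genes have near-identical pseudogenes among which RSEM divides reads.

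In the other groups described here no gene was called (edgeR, adjusted p under 0.05). Of 22 interferon response genes, 18 had a fitted difference above 0 (51.4% of all genes did), with a median of 0.28. Higher without overlap were 2 (9.09%, against 7.22% of all genes). The median came to 0.09 without 3-week replicate 1, 0.43 without 3-week replicate 3 and 0.45 without uninjured replicate 2. Members higher without overlap were then 40.9% without 3-week replicate 3 (13.4% of all genes) and 36.4% without uninjured replicate 2 (11.7% of all genes). H2-K1, a class I antigen presenting gene, had 239, 234 and 204 CPM at 3 weeks, against 179, 196 and 175 CPM uninjured (0.30, edgeR adjusted p = 0.26). Among 26 cholesterol genes, 22 lay above 0 (51.4% of all genes did), with a median of 0.13. Mvd, an enzyme of the mevalonate pathway, was 121, 90.7 and 90.9 CPM at 3 weeks against 70.6, 66.8 and 86.7 CPM uninjured (0.43, edgeR adjusted p = 0.43). Of 13 pan-reactive astrocyte genes, 7 lay above 0 and 6 below, none called, with a median of 0.04. This split depended on single libraries. Without uninjured replicate 2, 13 lay above 0, with a median of 0.48, and 30.8% were higher without overlap (11.7% of all genes). Without uninjured replicate 1, 5 lay above 0 and 8 below, with a median of -0.03. Lcn2, a lipocalin of reactive astrocytes and neutrophils, was 1.14, 4.59 and 0.577 CPM at 3 weeks, against 0.517, 44.5 and 0.789 CPM uninjured. The iron reductase gene Steap4 was likewise raised in uninjured replicate 2 alone, at 14.9 CPM against 0.266 to 1.05 CPM in the other 5 libraries. Their fitted differences of -2.85 and -3.06 came to 1.65 and 0.18 without that library. Mat2a, which makes the methyl donor S-adenosylmethionine, had 65.4, 68.3 and 83.9 CPM at 3 weeks, against 128, 96.8 and 107 CPM uninjured (-0.61, adjusted p = 0.126). Another identifier, ENSMUSG00000104463.2, which has no symbol, had the same log2 difference as Mat2a with DESeq2 (-0.6086) and with limma and quality weights (-0.6571). Whether RSEM divided reads between them was not tested, so the level given for Mat2a may be a part.

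In males the same contrast gave 0 calls by edgeR (0%), with 255 genes higher (1.66%) and 219 lower (1.42%) at an unadjusted p under 0.05, together 3.08%. A gene called in females and not in males is not thereby shown to differ, and the difference of the effects was tested in the same fit. No gene passed (0% by edgeR). At an unadjusted p under 0.05, 1.37% of genes were higher and 1.22% lower in the female effect, together 398 genes or 2.59%, and 50.7% had a difference above 0 and 49.3% below. DESeq2 called 1 gene and limma with quality weights 0. Rflnb differed by -1.01 in females and -0.49 in males, a difference of -0.52 ± 0.19 (edgeR adjusted p = 0.9999). Nnat differed by 0.60 in females and 0.40 in males, and Aqp6 by -0.90 in females and -0.56 in males. The male Rflnb values were 18.7, 22.4 and 22.1 CPM at 3 weeks, against 32.8, 28.5 and 28.0 CPM uninjured, without overlap. Anxa1 had 0.224, 0.190 and 0.310 CPM in males at 3 weeks, against 0.235, 0.135 and 0.286 CPM uninjured. Retnlg had 0, 2 and 1 counts in males at 3 weeks and 0 in each uninjured male library, too few for a fold, and its difference between sexes did not pass (edgeR adjusted p = 0.9999). The smallest p-values of the difference were sought among genes with a symbol and a mean of at least 1 CPM over the 6 female libraries, without predicted or unnamed models. They belonged to Aldh1b1, Hpgd, Acat2 and Pde1b on the higher side in females and to Zfp960, Sox1, Cgnl1 and Card6 on the lower. Acat2, a thiolase of cholesterol synthesis, differed by 0.31 in females and -0.20 in males. Of the 26 cholesterol genes, 25 lay below 0 in males (51.6% of all genes did, and 48.4% above), with a median of -0.18. The median of the responsive glucocorticoid genes was -0.45 in females and -0.12 in males, and that of ribosomal protein genes 0.26 and 0.10. These medians were not tested against each other.

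**Figure D4:**
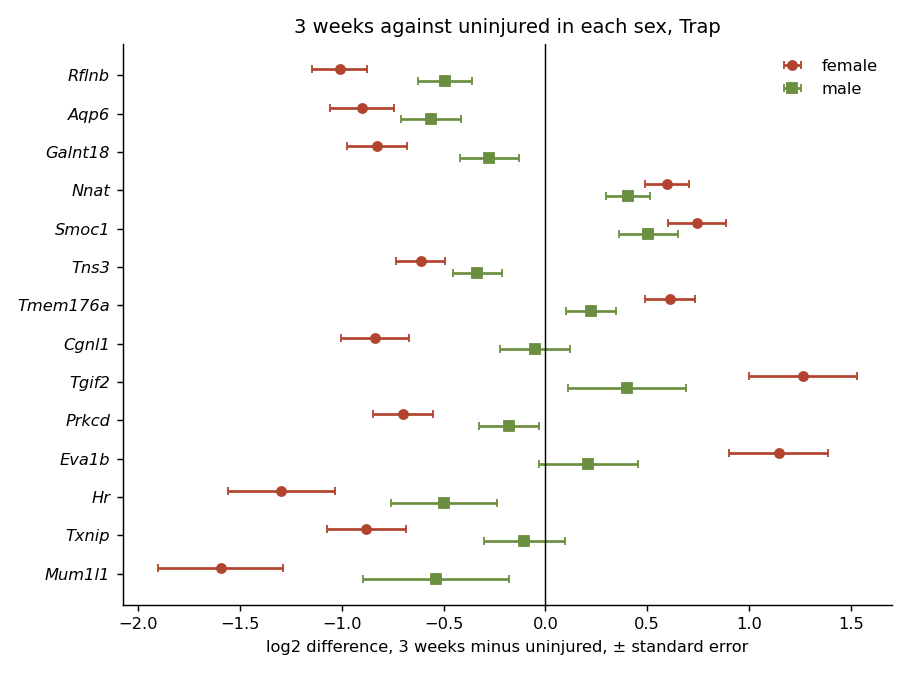
Fitted log2 difference, 3 weeks minus uninjured, with standard error for 14 genes in female (circles) and male (squares) Trap libraries, 3 against 3 in each sex. Rflnb, Aqp6, Galnt18 and Nnat, called in females, have the same sign in males, and none of the 14 passed the test of the difference between sexes.

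At later times the same genes were measured against the same 3 uninjured libraries, so the comparisons share them. At 5 weeks 0 genes were called by edgeR (0%) and 0 by DESeq2, with 1.81% higher and 2.05% lower at an unadjusted p under 0.05 (595 genes, 3.87%), and 50% of genes each above and below 0. At 7 weeks 0 were called by edgeR (0%) and 0 by DESeq2, with 1.14% higher and 1.31% lower (377 genes, 2.45%), and 50.5% above and 49.4% below 0. Rflnb was at 24.4, 22.9 and 23.4 CPM at 5 weeks and 26.6, 25.4 and 36.3 CPM at 7 weeks. Its log2 difference from uninjured was -1.01 at 3 weeks, -0.63 at 5 weeks and -0.31 at 7 weeks. For Galnt18 the differences were -0.83, -0.24 and -0.13, and for Aqp6 -0.90, -0.25 and -0.18, in the same order of times. Nnat differed by 0.60 at 3 weeks, and at 5 and 7 weeks by -0.0044 and 0.02. Smoc1 differed by 0.74, 0.37 and 0.37. The median of glucocorticoid responsive genes was -0.45, -0.39 and -0.13, and that of ribosomal protein genes 0.26, 0.09 and 0.05. The differences between times were not tested.

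**Figure D5:**
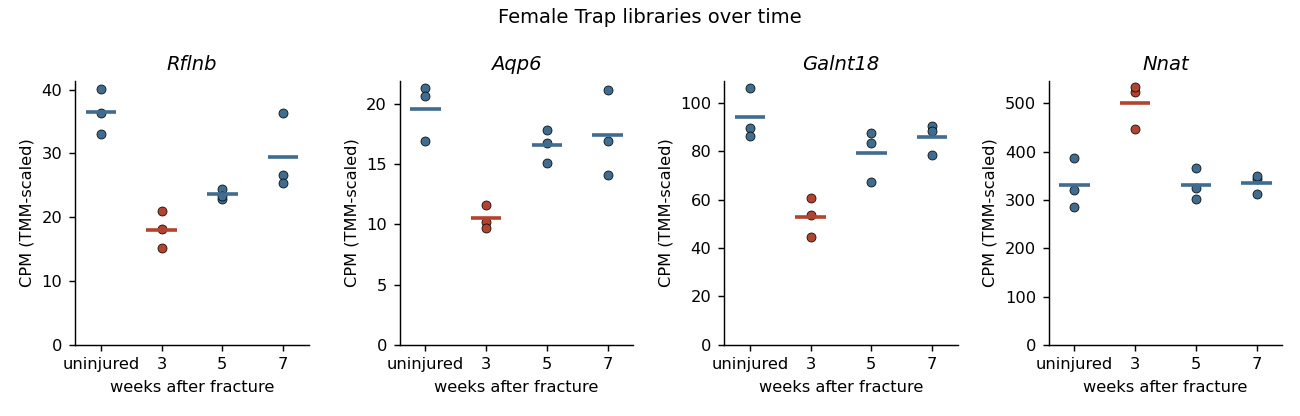
CPM (TMM-scaled, linear axis from 0) of Rflnb, Aqp6, Galnt18 and Nnat in female Trap libraries, uninjured and 3, 5 and 7 weeks after fracture, 1 point per library and bars for group means (3 libraries each). At 3 weeks Rflnb, Aqp6 and Galnt18 are at their lowest and Nnat at its highest.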

How the data were processed

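The deposited values are RSEM estimated counts, made by the authors with FastQC, Trim Galore, STAR and RSEM on GRCm38, per the submitters' processing notes. The notes read here give no tool version or annotation. RSEM splits reads between similar genes, which leaves near-identical copies uncertain. The table holds 55938 genes and 32 libraries. In each library 6.21% to 8.53% of values were fractional, and all were rounded here. Symbols and coordinates came from GENCODE M21 (GRCm38), and the 797 identifiers without a symbol took 0.301% of counts.

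A single edgeR 4.0.16 model (R 4.3.3) was fitted to the 24 Trap libraries with a mean per sex and state (filterByExpr, TMM, robust quasi-likelihood test, 2-sided, 16 residual degrees of freedom). Benjamini-Hochberg adjustment ran over all 15380 genes, and an adjusted p under 0.05 is a call. Trap was set against Input over the female uninjured and 3-week libraries. Input ratios add 0.5 CPM. Members and the 34 gene lists were chosen with earlier results of these data known, and lists got no test. Named are the called genes, the 8 nearest misses in each direction, up to 3 members of each list, a fixed panel, and 4 genes in each direction for the difference between sexes. The nearest misses and the genes for the difference between sexes had a symbol and a mean of at least 1 CPM over the 6 libraries. Predicted or unnamed models were left out of those choices. Members named beyond these sets were chosen after their values were seen. Alternatives were DESeq2 size factors, other filters, DESeq2 1.42.0, limma 3.58.1 with quality weights, fewer libraries, a replicate block, a prior count of 2 and leaving out each library. The test was checked on simulated data in which no library stood apart and no gene as rare as Anxa1 or Retnlg was changed. It called 28.4% of 1.5-fold, 88.1% of 2-fold and 100% of 4-fold changes, and 7 unchanged genes. The check therefore does not cover rare genes or a library that stands apart. Replicate libraries differed by more than sampling noise.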

Additional observations from a re-analysis of the deposited data

How the results depend on the processing

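For female 3 weeks against uninjured, Trap, the count of 6 called genes depended on the fit. It was 25 without a filter on low counts, 69 with DESeq2's Wald test and 235 with limma and quality weights. It was 0 with only the groups compared (1248 at an unadjusted p under 0.05) and 0 with only the 12 female Trap libraries (1238). Leaving out each library in turn gave 1 to 27 calls: 1 without uninjured replicate 1, 1 without 3-week replicate 2, 2 without uninjured replicate 2, 27 without 3-week replicate 3 and 27 without uninjured replicate 3. Without the 2 libraries that stand apart (female 3 weeks replicate 3 and male 7 weeks replicate 2), chosen after seeing the data, it was 44. The cause was not tested. For the difference between sexes DESeq2 called 1 gene, and for female 7 weeks against uninjured, Trap, leaving out each library gave 0 to 1 calls.

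Female column headers share a set prefix within replicates 2 and 3, and the labels do not say what it marks. Same-numbered 3-week and uninjured libraries correlated at -0.044, 0.046 and 0.068 in their deviations from the group means, under the minimum of 0.1 for a pairing. For replicates 1, 2 and 3, the 3-week libraries correlated with the 5-week ones at 0.009, 0.168 and 0.17, and with the 7-week ones at 0.031, 0.171 and 0.225. With the replicate block, calls were 60 at 3 weeks, 1 at 5 weeks and 1 at 7 weeks.

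The signs of some genes near 0, or with 1 high library, turned. With quality weights the log2 differences were -0.0924 for Itgam, -0.1080 for Snap25, -0.2451 for Cldn5, -0.5012 for Opalin, -0.0871 for Itm2a, 0.0041 for Aldh1l1 and 0.0268 for Aqp4. Without the 2 libraries that stand apart they were -0.0546 for Syp, -0.0619 for Fcrls, -0.0437 for Gad2, -0.3928 for Snap25, -0.8061 for Cldn5, -0.9097 for Opalin, -0.2123 for Itm2a, 0.0714 for Eif2s3y, 0.0714 for Aldh1l1, 0.0097 for Aqp4 and 0.0138 for Sox1. Leaving out each library gave -0.0371 to 0.5586 for Serpina3n, -3.6489 to 0.1810 for Steap4, -4.1169 to 1.6486 for Lcn2, -0.8488 to 0.6940 for Ly6a, -0.0544 to 0.5673 for Syp, -0.0620 to 1.4195 for Fcrls, -0.0424 to 0.6606 for Gad2, -0.3926 to 0.7768 for Snap25, -0.8058 to 0.9652 for Cldn5, -0.9098 to 1.0080 for Opalin, -0.2123 to 0.4348 for Itm2a, -1.4734 to 0.0712 for Eif2s3y, -0.1807 to 0.0715 for Aldh1l1, -0.1010 to 0.0462 for Aqp4 and -0.0574 to 0.0140 for Sox1. The cause was not tested. At about 20 counts per CPM, genes near 1 CPM such as Anxa1 and Retnlg are limited by depth.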

Other observations

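Genes of the unfolded protein response, which meets protein load in the endoplasmic reticulum, lay mostly below 0 at 3 weeks: 14 of 19 tested (48.6% of all genes did). Their median log2 difference was -0.15, and -0.09 without 3-week replicate 3. None was called by edgeR at an adjusted p under 0.05. On the lower side 4 had an unadjusted p under 0.05 (4.56% of all genes did). Hspa5, the main chaperone of the endoplasmic reticulum, had 346, 413 and 349 CPM at 3 weeks, against 499, 475 and 423 CPM in uninjured females, without overlap (edgeR adjusted p = 0.343). Of 16 genes of glutamate and GABA handling, 12 lay below 0 (48.6% of all genes did), with a median of -0.21. Without 3-week replicate 3 it was 11, with a median of -0.08. Their mean log2 CPM was 9.07, 9.19 and 8.77 at 3 weeks, against 9.15, 9.14 and 9.21 uninjured, so that replicate 3 was the lowest. Abat, the enzyme that breaks down GABA, had 1800, 1970 and 1460 CPM at 3 weeks, against 2180, 2100 and 2150 CPM uninjured (adjusted p = 0.419). Of 15 genes of NF-kB and cytokine signalling, 10 lay above 0 (51.4% of all genes did), with a median of 0.25. That median was 0.04 without uninjured replicate 1 and 0.43 without uninjured replicate 2. Stat3, a transcription factor of cytokine signalling, had 202, 230 and 127 CPM at 3 weeks, against 151, 141 and 127 CPM uninjured, and the groups overlapped. In the main fit it differed by 0.42 and was not called. Of 6 fits that left out a library, Stat3 was called in 1, without 3-week replicate 3 (0.63, edgeR adjusted p = 0.0143). In 2 of 10 other settings it was also called: limma with quality weights, and without the 2 libraries that stand apart.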
